A study of Mus musculus with 18 samples.

Results

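Brain tissue of the lesion 10 days after a photothrombotic stroke was compared with left-side brain tissue over all genes that reached 1 FPKM in 3 or more libraries, 14016 of 34921 entries. The comparison takes 6 of the 18 libraries of the series, 3 of the right side at 10 days (numbered 1, 2 and 5) and 3 of the left side (numbered 1, 3 and 5). FPKM counts fragments per kilobase of transcript, scaled by the total of the library. All animals were 9-week-old male C57BL/6 mice, an inbred strain. In photothrombosis a dye, rose bengal, is activated in the blood by light through the skull and clots the small vessels under the beam. Mice with a stroke received 100 mg/kg intraperitoneally, and 5 min later 15 min of 532 nm light (40 mW, fiber of 2 mm) centred 2 mm to the right of bregma. The lesion was punched out of frozen brain where magnetic resonance images showed it. The left libraries are described in one place as contralateral punches of mice with a stroke, picked at random, and in others as sham. No time after stroke is given for them, and whether any shares an animal with another library is not stated. Their titles are ctr.1L, ctr.3L and ctr.5L, and those of the sham right libraries are ctr.1R, ctr.2R and ctr.3R. The numbers 1 and 3 thus occur on both sides under the same prefix. Right-side punches of 3 sham mice, the matching place without a lesion, are given beside many values. It is not stated whether sham mice received dye or light.

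A photothrombotic lesion kills the tissue under the beam within a day or so. In the following days microglia, the resident macrophages of the brain, and monocytes from the blood enter the dead tissue, take up myelin and cell debris and break it down in lysosomes. Astrocytes at the border become reactive, and fibroblasts lay down collagen in the core. Markers of brain cells were present in both groups. All 12 cortical layer genes and all 10 genes of striatal neurons on the lists passed the filter, which libraries outside this comparison can also meet. The cortical layer genes summed to 117, 132 and 124 FPKM at 10 days and 102, 110 and 134 on the left. The striatal genes summed to 130, 96.9 and 152 at 10 days and 119, 117 and 94.2 on the left. Where the punches lay was not tested, and these lists do not place them in cortex or striatum. Ttr, the transthyretin made by the choroid plexus, stood at 508, 536 and 376 FPKM on the left. Its values were 625, 402 and 533 at 10 days and 267, 144 and 226 in sham right. The 12 choroid and ependymal genes on the list summed to 530, 558 and 395 FPKM on the left. The sums were 652, 423 and 554 at 10 days and 283, 155 and 242 in sham right. Ttr made up most of each sum, and the source of its RNA was not tested. A lower level of a cell type's transcripts in such a punch cannot tell fewer cells from less RNA per cell.

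Libraries 5 of both groups stood apart. The 10-day library 5 had the lowest nominal depth of the series (12.4 M fragments, against up to 29.9 M), the highest share of summed FPKM in mitochondrially encoded genes (44.6%, against 29.3% and 29.8% in 10-day libraries 1 and 2), and a mean correlation across genes of 0.933 with its group. Left library 5 had a mean correlation of 0.941 with its group, against 0.966 and 0.964 for left libraries 1 and 3, whose mitochondrial shares of 39 and 33.5% exceeded its 30.2%. It correlated at 0.943 and 0.939 with left 1 and 3, which correlated at 0.989 with each other. Its correlation was higher with sham right 2 (0.974) and with library 6 of the lesion at 4 hours (0.981). The cause was not tested. No counts were available, and these depths are rough. Counts and values that changed most without the 2 libraries are therefore given with and without them. Values below follow the order of libraries 1, 2 and 5 at 10 days and 1, 3 and 5 on the left.

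At 10 days 1208 of the 14016 genes (8.62%) differed from the left side (limma, Benjamini-Hochberg adjusted p under 0.05 over all genes), and these are called below. Of them 1009 were higher (7.2% of the genes tested) and 199 lower (1.42%), and 528 had a log2 fold change of at least 1 in size. Fold changes are differences of mean log2(FPKM + 1), which understates low genes. All 3 values at 10 days lay above all 3 left values for 1707 genes (12.2%) and below them for 797 (5.69%). With both libraries 5 left out the count was 2884 genes (20.6%), 2342 higher (16.7%) and 542 lower (3.87%). Leaving out left library 5 alone gave 3130 calls, of which 827 were lower, and each other single library left out gave from 838 (left 1) to 1463 (10 days 2). Lower calls numbered 57, 52 and 56 without left 1, left 3 and 10 days 5, and 430 and 483 without 10 days 1 and 2. The split also moved with the scaling: 83.5% of calls were higher as deposited, 68.6% after median-of-ratios scaling (988 higher, 453 lower) and 63.2% after quantile normalization (912 higher, 532 lower). With only the 6 libraries in the fit 526 genes were called higher and 6 lower.

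**Figure D1:**
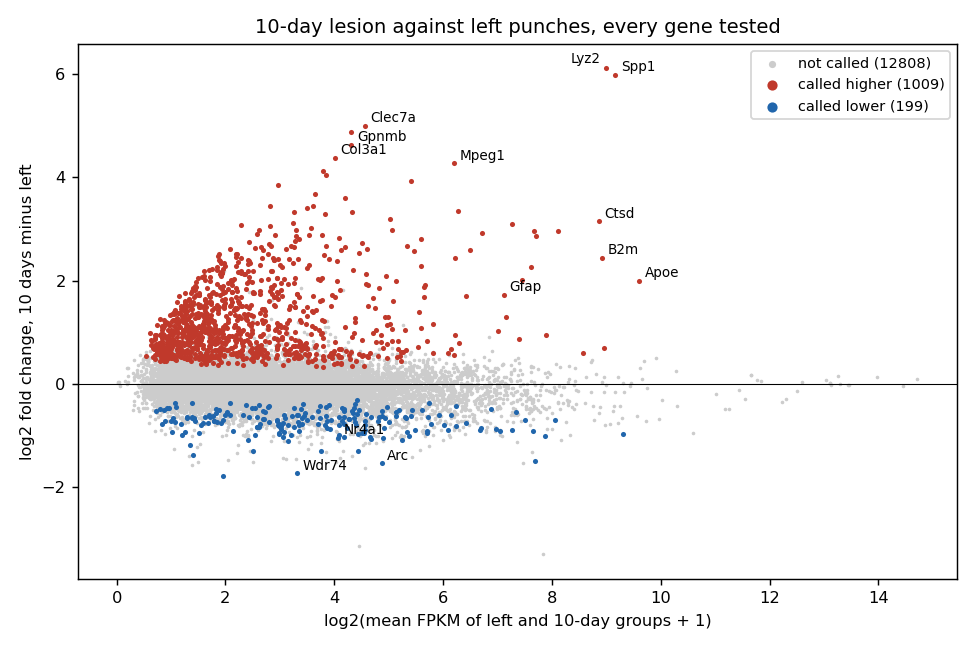
Level (x axis, log2 of the mean FPKM of the left and 10-day groups + 1) against log2 fold change of 10 days minus left (y axis) for the 14016 genes tested. Each point is a gene; the 1009 called higher are red and the 199 called lower blue, and the red points reach 6.11 (Lyz2) while the blue ones reach -1.77.

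The largest rises were genes of phagocytes and of collagen-forming cells. Lyz2, which encodes the lysozyme of macrophages, stood at 624, 512 and 1900.2 FPKM at 10 days and 13.8, 14.5 and 7.01 on the left (log2 fold change 6.11, SE 0.47, adjusted p = 3.05e-07). Spp1, encoding osteopontin, a secreted matrix protein of activated phagocytes, reached 501, 432 and 2468 FPKM against 11.7, 13.8 and 10.3 (log2 fold change 5.98, SE 0.50, adjusted p = 6.12e-07). In both genes the 10-day library 5 was the highest by several fold. The groups did not overlap, which the choice of the largest rises required. Without 10-day library 5 their log2 fold changes were 5.53 and 5.18. Cst7, encoding the cysteine protease inhibitor cystatin F, was even between libraries, at 36.2, 33.5 and 41.5 FPKM against 0.373, 0.269 and 0.251 (log2 fold change 4.87, SE 0.18, adjusted p = 1.42e-10). Its adjusted p was the smallest of the 14016 genes.

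Most other large rises were also highest in 10-day library 5. Clec7a, a receptor for fungal glucans on phagocytes, stood at 30.9, 23.8 and 80.0 FPKM at 10 days against 0.296, 0.379 and 0.107 (log2 fold change 5.00, adjusted p = 3.99e-08; 4.49 without 10-day library 5). Gpnmb, a membrane glycoprotein of lipid-laden macrophages, was at 26.9, 18.4 and 67.1 against 0.344, 0.237 and 0.447 (log2 fold change 4.64, adjusted p = 3.41e-07; 4.12 without that library). Library 5 was again the highest at 10 days, and libraries 1 and 2 were still far above every left and sham library. Mpeg1, encoding the pore-forming perforin-2 of macrophages, rose by 4.27 (SE 0.20, adjusted p = 3.74e-09), from 6.37, 6.98 and 5.17 to 132, 107 and 179.8 FPKM. Lgals3, the sugar-binding galectin-3, and Cd68, a lysosomal membrane protein of macrophages, rose by 4.05 (SE 0.34, adjusted p = 5.63e-07) and 3.93 (SE 0.29, adjusted p = 1.94e-07); the latter was 3.58 without 10-day library 5. Cd5l, a protein secreted by tissue macrophages, was listed at 0 in all 3 left and all 3 sham right libraries and at 18.5, 10.8 and 11.9 FPKM at 10 days (adjusted p = 1.28e-08).

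The collagen genes Col3a1 and Col1a1 completed the largest rises together with Gm47302, a short locus annotated as a miRNA. Col3a1 stood at 21, 24 and 45 FPKM against 0.272, 0.506 and 0.461 (log2 fold change 4.38, SE 0.38, adjusted p = 8.37e-07). Gm47302 (GRCm38 chr1:45311673-45311813, plus strand) lies wholly inside Col3a1 (chr1:45311538-45349706, plus strand) and was at 25.5, 26.2 and 23.5 FPKM against 0.184, 1.07 and 0.352 (log2 fold change 4.13, adjusted p = 1.42e-06). Fragments of the 2 overlapping genes cannot be told apart here, so its value is uncertain.

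**Figure D2:**
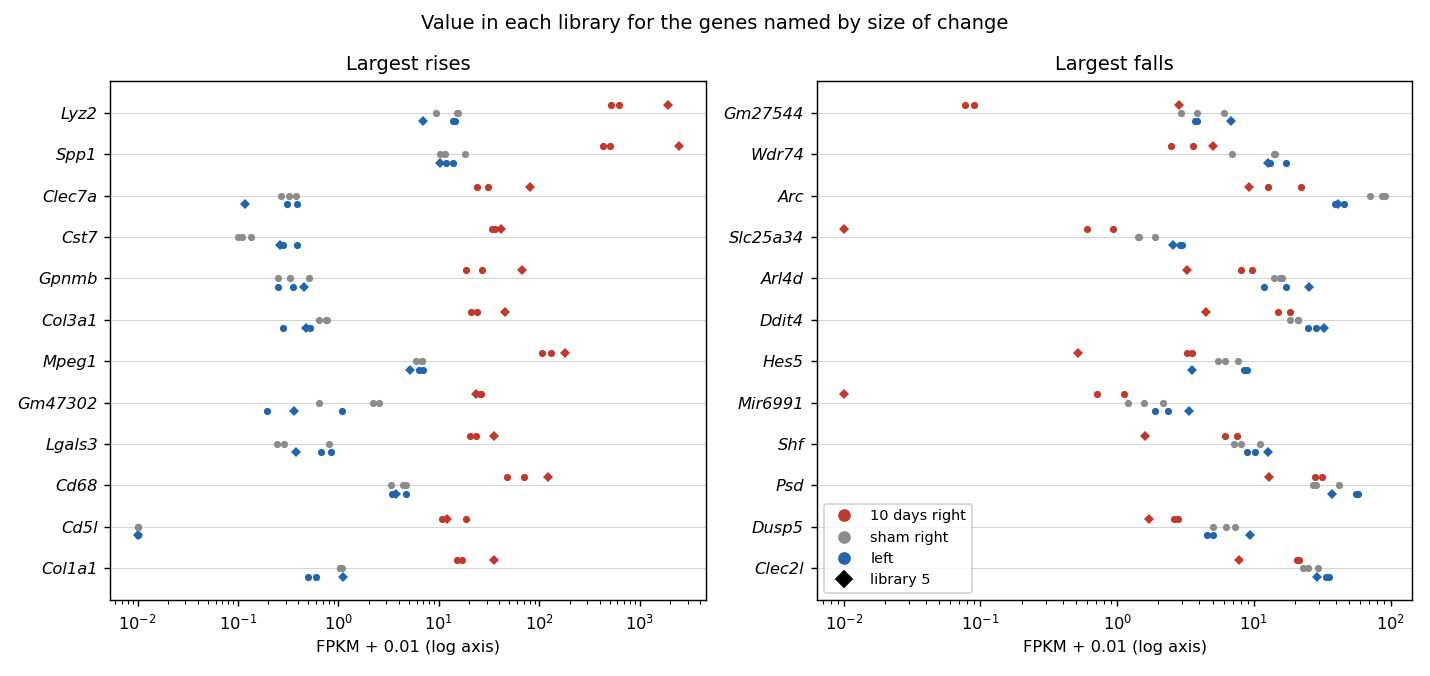
FPKM + 0.01 (x axis, log scale) in each library for the 12 genes with the largest rise and the 12 with the largest fall (called, with groups that did not overlap). Red points are the 10-day libraries, grey the sham right and blue the left ones, and diamonds mark libraries 5; the red diamond is the highest point for Lyz2, Spp1, Clec7a and Gpnmb and the lowest red point for every fall except Gm27544 and Wdr74.

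Of 20 genes of activated phagocytes, 19 were called higher and none lower, with a median log2 fold change of 2.59 against 0.00 over all genes tested. Their summed level was 4051, 3154 and 5482 FPKM at 10 days, 637, 727 and 505 on the left and 676, 535 and 646 in sham right. Trem2, a lipid-sensing receptor of microglia, stood at 28, 25.2 and 18.1 FPKM against 3.31, 3.39 and 1.93 (log2 fold change 2.68, SE 0.19, adjusted p = 1.41e-07). Its signalling partner Tyrobp was at 335, 234 and 246 against 39.9, 46 and 15.1 (log2 fold change 3.099, SE 0.34, adjusted p = 7.98e-06). Left library 5 held the lowest value of each, and neither group overlapped the other. The lipid carrier Apoe was already abundant on the left, at 336, 379 and 233 FPKM, and reached 1417, 1106 and 1199 (log2 fold change 1.99, adjusted p = 3.37e-06). Itgax, the integrin chain CD11c, had 1.63, 1.95 and 3.69 FPKM against 0.00907, 0.0356 and 0.0199 (adjusted p = 3.37e-06). Igf1, a growth factor, rose by 2.51 (adjusted p = 4.84e-06). Fabp5, a fatty acid carrier, was the member that missed the threshold (0.35, adjusted p = 0.383).

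Of 13 genes that mark resting microglia 8 were called higher and none lower (median 1.37). All 13 log2 fold changes were above 0, from 0.39 to 2.80. Csf1r, the receptor on which microglia depend for survival, stood at 56.5, 45 and 45.5 FPKM against 8.57, 11.3 and 12.6 (log2 fold change 2.09, SE 0.16, adjusted p = 2.52e-07). Fcrls, an Fc receptor-like gene of microglia, rose by 2.80 (SE 0.24, adjusted p = 7.45e-07). The purine receptor P2ry12 and the surface protein Tmem119, which mark microglia at rest, did not pass. P2ry12 stood at 14.2, 16.1 and 41.8 FPKM against 9.1, 14.4 and 12.2 (adjusted p = 0.242), and Tmem119 at 18, 19 and 7.86 against 8.68, 10.9 and 5.62 (adjusted p = 0.125). The 10-day library 5 was the highest for P2ry12 and the lowest of its group for Tmem119, inside the left range. Tmem119 was called higher without both libraries 5 (0.86, adjusted p = 0.00538) and P2ry12 was not (0.37, adjusted p = 0.554).

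Monocyte and macrophage genes followed, with 12 of 16 tested called higher and none lower (median 1.66). Adgre1, the macrophage protein F4/80, stood at 15.9, 13.9 and 16.7 FPKM against 1.55, 1.99 and 1.36 (log2 fold change 2.65, SE 0.17, adjusted p = 6.49e-08). Fcgr1, a high-affinity receptor for antibody, was at 12, 10.7 and 9.83 against 2.08, 1.83 and 1.01 (log2 fold change 2.19, SE 0.18, adjusted p = 5.46e-07). The groups of both genes were far apart, with libraries of each group close together. The monocyte genes Ly6c2 and Plac8 were called higher as well (0.77 and 1.53, adjusted p = 0.0267 and 0.00459). Arg1 and Chil3, genes of alternatively activated macrophages, were not (0.15 and -0.06, adjusted p = 0.801 and 0.9).

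Of 12 neutrophil genes only 4 passed the filter and 1, Csf3r, the receptor for granulocyte colony-stimulating factor, was called higher (8.44, 5.63 and 9.16 FPKM against 0.909, 0.758 and 1.05, log2 fold change 2.18, SE 0.20, adjusted p = 1.36e-06). S100a8, S100a9 and Retnlg were not called (-0.68, -0.45 and -0.75). Over all genes 7.2% were called higher. Of 24 lymphocyte and dendritic cell genes 5 passed the filter and 1, the chemokine Ccl5, was called higher, at 4.4, 3.86 and 1.62 FPKM against 0.1, 0.351 and 0.0398 (log2 fold change 1.82, SE 0.21, adjusted p = 1.79e-05). None of 5 red cell genes tested was called. With Slc4a1, which did not pass the filter, the red cell list summed to 316, 394 and 122 FPKM at 10 days and 609, 603 and 337 on the left. The sum was lowest in 10-day library 5, and its part in the other results was not tested.

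The innate recognition systems that these cells use rose together. Of 15 complement genes 13 were called higher and none lower (median 2.03), and 13 calls were made in each fit that left out 1 library. C1qa and C1qc, chains of the C1q protein that tags debris and synapses, were at 423, 400.4 and 251 and 208, 193 and 149 FPKM against 42.7, 62.7 and 31.2 and 24.9, 32.2 and 15.4. Their log2 fold changes were 2.97 (SE 0.25, adjusted p = 7.45e-07) and 2.92 (SE 0.24, adjusted p = 4.65e-07). The central component C3 stood at 3.39, 3.06 and 4.16 FPKM against 0.0914, 0.0132 and 0.189 (log2 fold change 2.04, SE 0.23, adjusted p = 1.01e-05), and C4b at 14.9, 12.5 and 7.16 against 1.9, 1.45 and 2.52 (log2 fold change 2.04, SE 0.29, adjusted p = 0.00013). For C1qa, C1qc and C4b the 10-day library 5 was the lowest of its group. Among the receptors, C3ar1 rose by 3.34 and Itgb2, a chain of complement receptor 3, by 2.62 (adjusted p = 1.1e-06 and 4.59e-07). Cfb, of the alternative pathway, and Cd59a, an inhibitor of lysis, missed the threshold (adjusted p = 0.406 and 0.628).

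All 6 Fc receptor genes tested were called higher (median 2.78), Fcgr4 from 0.27, 0.891 and 0.0804 to 7.83, 6.46 and 11.1 FPKM (log2 fold change 2.75, SE 0.25, adjusted p = 1.28e-06). Of 13 genes of microbial and danger sensing 12 were called higher (median 1.79). Tlr2, a receptor for bacterial lipoproteins, stood at 8.96, 8.36 and 12.4 FPKM against 0.329, 0.431 and 0.338 (log2 fold change 2.98, SE 0.15, adjusted p = 8.09e-09), a gap of many times the spread of either group. Ly86 and Cd180, which form a receptor complex related to Tlr4, rose by 3.199 (SE 0.25, adjusted p = 3.39e-07) and 2.90 (SE 0.25, adjusted p = 8.37e-07). Tlr3 was the member not called (0.10, adjusted p = 0.878). All 7 genes of the phagocyte oxidase, which makes superoxide, were called higher (median 1.95). Its subunit Ncf1 was at 11.6, 9.95 and 9.07 FPKM against 1.99, 2.45 and 1.69, the GTPase Rac2 at 6.47, 5.33 and 7.89 against 0.544, 0.701 and 0.39 and the proton channel Hvcn1 at 5.41, 5.08 and 6.35 against 0.748, 0.741 and 0.62. Their log2 fold changes were 1.88, 2.28 and 1.95 (adjusted p = 1.38e-06, 1.17e-07 and 3.2e-08).

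Each of the 24 lysosomal genes tested was called higher, with log2 fold changes from 0.60 (Psap) to 3.15 (Ctsd) and a median of 1.83. Lysosomes digest what a cell has engulfed. The summed level was 3609, 3018 and 3374 FPKM at 10 days, 815, 928 and 982 on the left and 949.5, 894 and 923 in sham right, so the rise was of like size in the 3 libraries. Ctsd, an aspartic protease, stood at 1058, 765 and 696 FPKM against 85.6, 106 and 85.8 (log2 fold change 3.15, SE 0.18, adjusted p = 2.78e-08). Ctss, a cysteine protease of antigen-presenting cells, was at 507, 468 and 494 against 68.6, 84.1 and 41.3 (log2 fold change 2.96, SE 0.23, adjusted p = 3.41e-07). Laptm5, a lysosomal membrane protein of blood-derived cells, and Ctsh rose by 2.74 (SE 0.18, adjusted p = 6.49e-08) and 2.25 (SE 0.15, adjusted p = 6.19e-08). Between 21 and 24 of the 24 were called in the fits that left out 1 library, and 22 were called higher against sham right.

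Genes for handling the lipid that phagocytes take up rose as well, 12 of 14 (median 1.67). Plin2, the coat protein of lipid droplets, stood at 20.9, 10.9 and 17.8 FPKM against 1.26, 0.935 and 1.3 (log2 fold change 2.98, SE 0.27, adjusted p = 1.42e-06). Lpl, which releases fatty acids from lipoproteins, was at 12, 10.15 and 22.7 against 1.21, 1.22 and 1.76 (log2 fold change 2.66, SE 0.24, adjusted p = 1.38e-06). Library 1 was the highest at 10 days for Plin2 and library 5 for Lpl, and all left values of both lay below the lowest 10-day value. The cholesterol exporters Abca1 and Abcg1 rose by 2.65 and 1.23 (adjusted p = 1.03e-05 and 0.00115). Nr1h3, the nuclear receptor that controls such exporters, was not called (0.08, adjusted p = 0.73).

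All 16 genes of cholesterol synthesis tested had log2 fold changes below 0 (median -0.42). Of them 4 were called lower and none higher, against 1.42% of all genes called lower. After non-mitochondrial scaling 2 were called, and none with only the 6 libraries. Insig1, the sterol-sensing regulator of the pathway, stood at 15.4, 16.8 and 13.8 FPKM at 10 days against 22.2, 21.3 and 26.4 on the left and 31.6, 29 and 31.4 in sham right (log2 fold change -0.57, SE 0.12, adjusted p = 0.00464 against left). Idi1, an isomerase of the isoprenoid steps, was at 14.2, 14.9 and 14.4 against 29.4, 27.6 and 19.2 (log2 fold change -0.75, SE 0.17, adjusted p = 0.00961). Cyp51, a sterol demethylase, and Mvd, a decarboxylase of the mevalonate steps, fell by 0.42 and 0.79 on the log2 scale (adjusted p = 0.0216 and 0.032). The groups of these 4 genes did not overlap. The call of Insig1 was made in all 6 fits that left out 1 library. The calls ended (adjusted p in parentheses) of Idi1 without left 1 (0.0635) and left 3 (0.0523), of Cyp51 without left 3 (0.0792) and 10 days 1 (0.0564), of Mvd without left 1 (0.0738), left 3 (0.0753) and 10 days 5 (0.0931). Without both libraries 5 the median was -0.20 and 3 were called lower. Left values of the list lay under sham right (median -0.30, against -0.05 over all genes), with no member called. Against sham right 10 of the 16 were called lower at 10 days (background 0.92% of genes).

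Promoter letters of 3 of the 4 sterol genes called lower are shown, those that hold the CCAAT letters searched, which were common in the list. Promoters were taken from RefSeq on GRCm38.p6 as the 250 bases before and 50 bases after a gene's start, and 11 of the 16 genes had one. The letters GATTGG, which hold a CCAAT box on the other strand, were searched on both strands and were in 10 of those 11 and in 23.6% of the 9975 tested genes with a promoter. The promoter of the list without these letters was that of Insig1, whose fall was called in all 6 fits without 1 library. The sterol regulatory element, searched as TCACNCCAC, was in 1 of 11 (Hmgcs1) and in 1.37% of tested genes. The stretches below are each of 70 bases upstream of the start and read 5′ to 3′ in the sense of the gene. Capitals mark the letters searched, GATTGG or its reverse complement CCAATC. The stretch of Mvd is chr8:122443423-122443492 on the minus strand, that of Idi1 chr13:8885535-8885604 on the plus strand and that of Cyp51 chr5:4104698-4104767 on the minus strand.
Mvd: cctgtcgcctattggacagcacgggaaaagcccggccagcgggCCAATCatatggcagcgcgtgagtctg
Idi1: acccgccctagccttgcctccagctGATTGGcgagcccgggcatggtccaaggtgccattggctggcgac
Cyp51: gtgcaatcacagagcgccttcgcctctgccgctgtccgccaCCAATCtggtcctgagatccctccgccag
The letters in capitals ended 21, 40 and 23 bases before the start of Mvd, Idi1 and Cyp51. Lower-case attgg in the stretches of Mvd and Idi1 is also CCAAT on the other strand, outside the letters searched. In Idi1 it lies nearer the start than the capitals. A match describes these letters only and shows no binding.

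Antigen presentation genes rose on both arms. Of 11 class I genes 9 were called higher and none lower (median 1.07). B2m, the light chain of all class I molecules, stood at 669.9, 663 and 1124 FPKM against 152, 159 and 126 (log2 fold change 2.44, SE 0.21, adjusted p = 8.79e-07). The heavy chains H2-D1 and H2-K1 were at 88.3, 95.5 and 55.4 and 41.4, 42.9 and 29.9 against 14.1, 13.8 and 17.8 and 8.82, 8.88 and 6.13 (log2 fold change 2.29 and 2.12, adjusted p = 5.25e-07 and 2.43e-06). Library 5 at 10 days was the highest for B2m and the lowest of its group for both heavy chains. H2 genes are alike in sequence and can share fragments, so their separate values are uncertain. Psmb8 and Psmb9, subunits of the immunoproteasome that cuts peptides for class I, rose by 1.51 (SE 0.20, adjusted p = 6.63e-05) and 0.82 (SE 0.16, adjusted p = 0.00271).

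All 7 class II genes tested were called higher (median 2.44). H2-Aa and H2-Ab1, the chains of one class II molecule, stood at 8.68, 8.05 and 12.9 and 6.96, 5.96 and 8.95 FPKM against 0.864, 0.464 and 0.807 and 0.311, 0.588 and 0.661 (log2 fold change 2.65 and 2.44, adjusted p = 0.000106 and 2.62e-05). Cd74, the invariant chain that escorts them, was at 16, 17.3 and 24.7 against 1.05, 1.96 and 2.23 (log2 fold change 2.89, SE 0.45, adjusted p = 0.000306). In sham right the same 3 genes were spread more widely, with Cd74 at 3.02, 1.53 and 7.41 FPKM, and sham right 3 stood out. Against sham right Cd74 still rose at 10 days (2.18, adjusted p = 0.0041).

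Of 16 interferon-induced genes 13 were called higher and none lower (median 1.34). Ifi27l2a stood at 25.1, 37.5 and 24 FPKM against 4.95, 3.28 and 1.74 (log2 fold change 2.83, SE 0.35, adjusted p = 2.85e-05). Gbp2, a GTPase that attacks vacuoles of microbes, was at 7.05, 8.59 and 11.5 against 2.03, 1.08 and 1.3 (log2 fold change 2.02, SE 0.23, adjusted p = 1.11e-05). Oas1a, a sensor of double-stranded RNA, was at 3.56, 4.72 and 4.35 against 0.495, 0.555 and 0.528 (log2 fold change 1.77, SE 0.23, adjusted p = 5.4e-05), and Ifit3 at 21.6, 28.4 and 17.9 against 8.96, 6.57 and 3.68 (log2 fold change 1.72, SE 0.30, adjusted p = 0.000907). None of these 4 genes had overlapping groups, and the 10-day library 2 was the highest for all but Gbp2. Ifit2, Isg15 and Rsad2 were not called (adjusted p = 0.87, 0.368 and 0.064). Between 11 and 14 members were called in the fits that left out 1 library. Summed over all 18 interferon genes on the list, sham right 1 had the highest level of the control libraries (103, 41.3 and 55.3 FPKM in sham right, 61.9, 43.8 and 33 on the left, 175, 212 and 149.5 at 10 days).

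The interferon-stimulated response element, a site bound by transcription factors that interferon activates, was searched on both strands as a pair of GAAA with 2 free bases between them. It was in 9 of the 12 interferon genes that had a RefSeq promoter and in 3.71% of all tested genes with one. Among those 9, Isg15 and Rsad2 were not called. Stretches of 4 of the called genes are shown as examples with 1 match or 2 overlapping ones; capitals mark it, and where 2 matches overlap the run of capitals is longer. They are chr3:142620579-142620648, plus strand for Gbp2, chr19:34583382-34583451, plus strand for Ifit3, chr5:120907526-120907595, minus strand for Oas1a and chr8:71537552-71537621, minus strand for Bst2, the membrane tether that holds back budding viruses.
Gbp2: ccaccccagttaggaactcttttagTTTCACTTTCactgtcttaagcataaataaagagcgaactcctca
Ifit3: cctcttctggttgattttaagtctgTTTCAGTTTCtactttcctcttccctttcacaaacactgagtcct
Oas1a: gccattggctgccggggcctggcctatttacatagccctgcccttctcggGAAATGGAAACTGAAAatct
Bst2: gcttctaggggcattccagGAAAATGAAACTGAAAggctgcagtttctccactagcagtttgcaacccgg
Gbp2 and Ifit3 carry 1 match in the stretch, on the reverse strand, and Oas1a and Bst2 carry 2 overlapping matches on the gene's strand. The last match ended 49 bases before the start of Gbp2, 112 of Ifit3, 4 of Oas1a and 114 of Bst2. Bst2 itself rose by 2.00 (SE 0.38, adjusted p = 0.00215), from 7.88, 5.93 and 3.05 to 29.1, 33.9 and 14.1 FPKM. The element was also in 2 of 10 class I promoters (B2m and H2-T23), 1 of 5 class II (Ctss), 2 of 18 lysosomal (Ctss and Lamp1), 1 of 16 phagocyte (Spp1), 4 of 17 immediate early (Fosl2, Egr4, Bdnf and Homer1) and none of the 11 sterol promoters. The other patterns searched were GAGGAAGT (PU.1), TCACGTGA and CACGTGAC (E-boxes of lysosomal genes), the 14-letter X box of class II genes with 1 free base (strict) or 4 (loose), GGGACTTTC (NF-kappaB) and TGAGTCA (AP-1), 10 patterns in all with those above. CACGTGAC was in 4 of 18 lysosomal promoters (Ctsa, Ctsd, Lgmn and Lamp1) against 4.71% of tested genes. The CCAAT letters were in 4 of 5 class II and 7 of 10 class I promoters, and the loose X box in 1 of 5 (H2-DMb1) against 0.0602% of tested genes.

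Chemokine and cytokine genes were called higher for 12 of 16 tested (median 1.60). Cxcl16, a chemokine and scavenger receptor, stood at 6.01, 6.25 and 8.29 FPKM against 0.568, 0.648 and 0.373 (log2 fold change 2.35, SE 0.17, adjusted p = 1.4e-07). Il1a was at 3.05, 2.45 and 4.76 against 0.383, 0.276 and 0.187 (log2 fold change 1.76, SE 0.19, adjusted p = 7.17e-06), and Tgfb1, which restrains inflammation and drives matrix formation, at 2.8, 2.99 and 3.3 against 0.727, 0.617 and 0.587 (log2 fold change 1.29, SE 0.13, adjusted p = 4.05e-06). All were low on the left, under 1 FPKM, and the 3 libraries at 10 days were close for Cxcl16 and Tgfb1. Il1b was not called (0.35, adjusted p = 0.408), and Tnf, Il6 and Cxcl13 did not reach the filter.

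**Figure D3:**
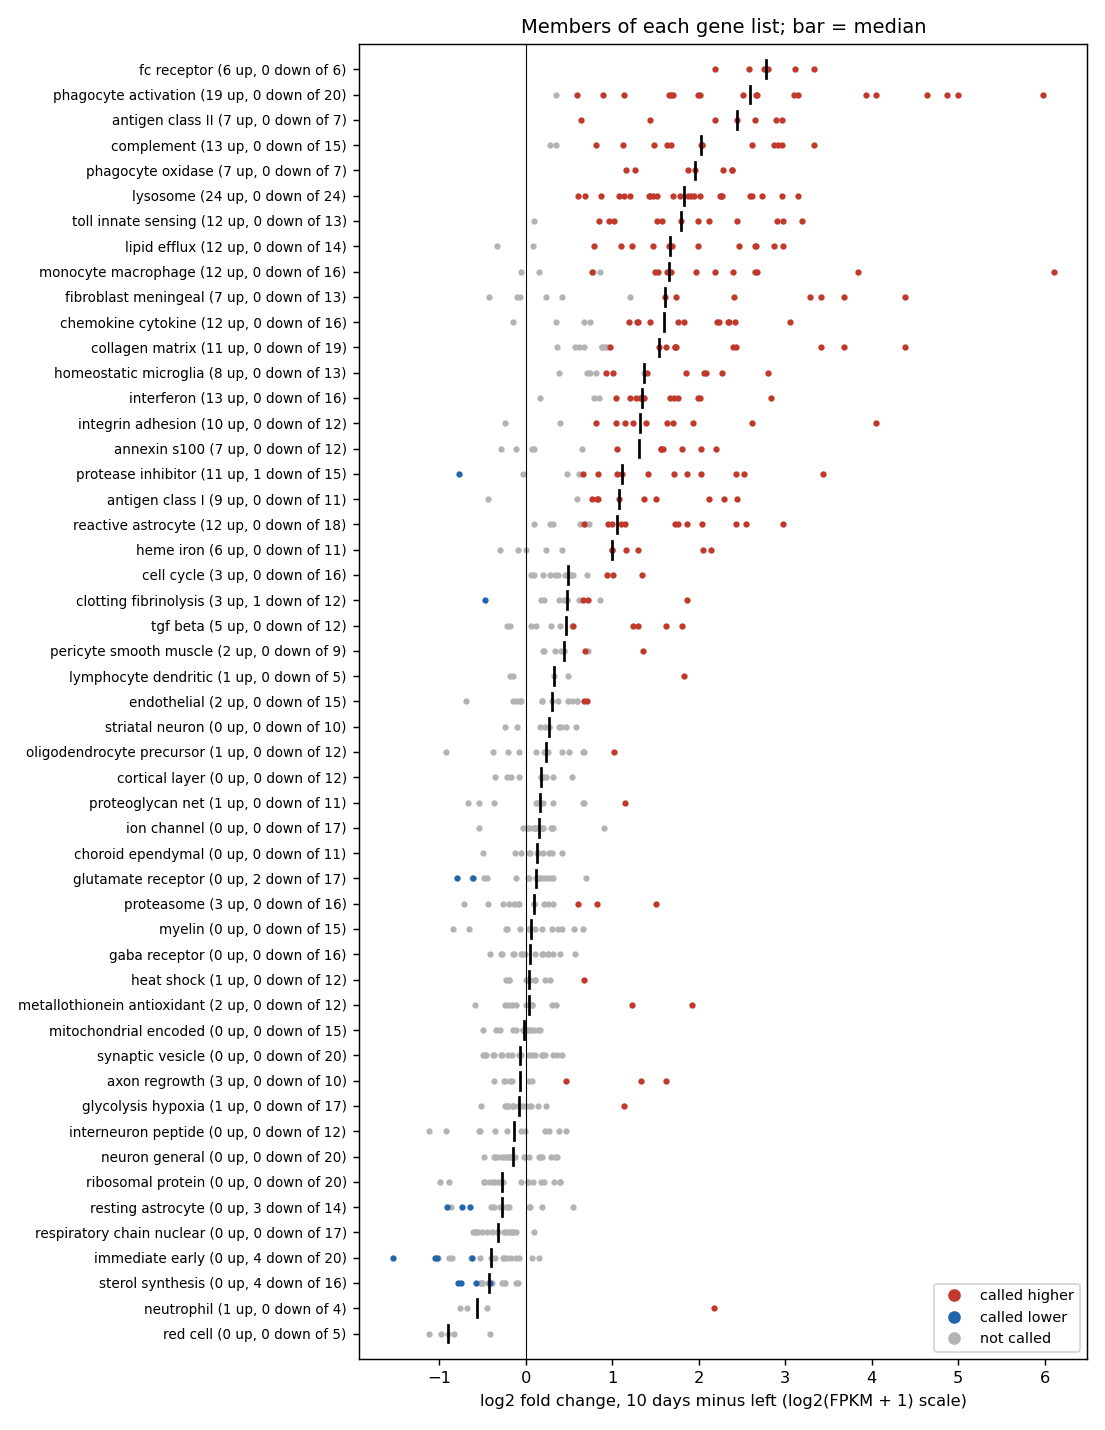
Log2 fold change of 10 days minus left (x axis) for each tested member of 51 gene lists (y axis, ordered by median, with the number called higher and lower of those tested). Red points were called higher, blue lower and grey not called, and black bars are medians; the lists of phagocytes and lysosomes lie to the right of 0 and the red cell, sterol and immediate early lists to the left.

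Of 18 genes of reactive astrocytes 12 were called higher and none lower (median 1.05). Gfap, the astrocyte filament protein, stood at 230.1, 223 and 179 FPKM against 77.2, 75.5 and 41.9 on the left and 51.1, 42.7 and 53 in sham right (log2 fold change 1.72, SE 0.26, adjusted p = 0.000209 against left). Vim, a filament protein shared by reactive astrocytes, fibroblasts and macrophages, was at 29.3, 30.8 and 50.1 against 4.67, 5.94 and 5.3 (log2 fold change 2.54, SE 0.24, adjusted p = 1.85e-06). Serpina3n, a secreted protease inhibitor, was at 60.3, 48.6 and 64.2 against 4.5, 5.45 and 10.6 (log2 fold change 2.97, SE 0.29, adjusted p = 2.52e-06). Library 5 was the lowest at 10 days for Gfap and the highest for Vim and Serpina3n. Lcn2, an iron-binding secreted protein, rose by 1.76 (SE 0.30, adjusted p = 0.00073) against the left, at 1.55, 1.45 and 1.69 FPKM there and 0.233, 0.142 and 0.075 in sham right. Nes, Osmr, Aspg, Ptx3, Emp1 and Tnc were not called, with log2 fold changes from 0.10 to 0.73.

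Of 14 genes of resting astrocytes tested none was called higher and 3 were lower (median -0.28), against 1.42% of all genes called lower. Against sham right none of the 14 was called lower, nor was any with only the 6 libraries in the fit. After non-mitochondrial scaling 2 were called lower. Aldoc, a glycolytic enzyme, stood at 179, 171 and 77.3 FPKM against 259, 317 and 194 (log2 fold change -0.91, SE 0.26, adjusted p = 0.0358), and Aldh1l1, of folate metabolism, at 8.59, 8.07 and 3.69 against 10.49, 11.7 and 12 (log2 fold change -0.74, SE 0.20, adjusted p = 0.0295). In both the 10-day library 5 was the lowest by far, and against sham right the differences were -0.49 and -0.49 (adjusted p = 0.312 and 0.198). Gjb6, the gap junction protein connexin 30, was at 18.9, 19.7 and 18 against 27.6, 34.6 and 28.1 (log2 fold change -0.64, SE 0.17, adjusted p = 0.0235), and at 16.9, 16.5 and 18 in sham right, where the difference was 0.13 (adjusted p = 0.699). When single libraries were left out, calls ended (adjusted p in parentheses) of Aldoc without left 1 (0.113), left 3 (0.163) and 10 days 5 (0.119), of Aldh1l1 without left 1 (0.0602), left 3 (0.0951) and 10 days 5 (0.0608), of Gjb6 without left 3 (0.119) and 10 days 5 (0.0693). The water channel gene Aqp4, active in astrocyte endfeet, was at 41.8, 42.7 and 53.4 FPKM against 34.6, 32.9 and 26.1 (log2 fold change 0.55, adjusted p = 0.058). Slc1a2, the main glutamate transporter, was at 177, 185 and 188 against 190.2, 160.3 and 136 (log2 fold change 0.19, adjusted p = 0.824).

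Matrix genes rose as well. Of 19 collagen and matrix genes tested 11 were called higher and none lower (median 1.55), and all 19 log2 fold changes were above 0. The number called was 16 without both libraries 5, where 16.7% of all genes were called higher. Beside Col3a1, Col1a1 stood at 15, 17 and 35.1 FPKM against 0.486, 0.594 and 1.09 (log2 fold change 3.68, SE 0.40, adjusted p = 7.32e-06) and Col1a2 at 10.8, 14.8 and 33.6 against 0.526, 0.773 and 0.985 (log2 fold change 3.41, SE 0.40, adjusted p = 1.62e-05). These are the chains of the fibrillar collagens of scars, and 10-day library 5 held the highest value of each. Without it the log2 fold changes of Col1a1 and Col1a2 were 3.32 and 2.96. Loxl1, a cross-linking enzyme, and Tgfbi, a matrix protein, rose by 1.55 (SE 0.18, adjusted p = 1.45e-05) and 1.62 (SE 0.29, adjusted p = 0.00105). The basement membrane collagens Col4a1 and Col4a2 were not called (0.94 and 0.89, adjusted p = 0.118 and 0.128).

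Among 13 fibroblast and meningeal genes 7 were called higher (median 1.62), including the proteoglycans Lum (3.29) and Dcn (2.41). The meningeal genes Igf2, Slc6a13 and Aldh1a2 were not called (0.24, -0.10 and -0.06). Of 15 proteases and inhibitors 11 were called higher and 1 lower. Mmp3, stromelysin 1, was listed at 0, 0.217 and 0 FPKM on the left and stood at 8.13, 6.38 and 21.9 at 10 days (adjusted p = 9.05e-06). Mmp2, a gelatinase, was at 3.29, 3.08 and 5.53 against 0.257, 0.48 and 0.723 (log2 fold change 1.72, SE 0.18, adjusted p = 5.05e-06), and Plau, the urokinase that activates plasminogen, at 5.07, 6 and 7.62 against 0.805, 1.2 and 0.918 (log2 fold change 1.86, SE 0.17, adjusted p = 1.42e-06). Library 5 was the highest at 10 days for all 3. Timp4, an inhibitor of metalloproteases, was lower at 10 days, at 6, 5.03 and 3.58 FPKM against 9.35, 9.28 and 8.09 (log2 fold change -0.77, SE 0.15, adjusted p = 0.00283), and at 6.93, 6.11 and 6.86 in sham right (difference -0.40, adjusted p = 0.159).

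Of 12 genes of TGF-beta signalling 5 were called higher and none lower (median 0.47). The receptor gene Tgfbr2 stood at 8.14, 7.42 and 10.51 FPKM against 1.69, 1.63 and 1.96 (log2 fold change 1.80, SE 0.14, adjusted p = 4.19e-07) and Tgfbr1 at 10.8, 10.8 and 13.2 against 4.14, 5.01 and 3.86 (log2 fold change 1.24, SE 0.14, adjusted p = 1.33e-05). With Tgfb1, Tgfbi and the co-receptor Eng (0.55, adjusted p = 0.0478; called in 1 of 6 fits without 1 library, where the adjusted p otherwise reached 0.206 without left 3) they made the 5. Against sham right Eng was not called (0.27, adjusted p = 0.371). Of 12 integrin and adhesion genes 10 were called higher (median 1.32). Itgb5, a vitronectin receptor chain, was at 36.4, 31.9 and 43.4 against 8.27, 10.4 and 8.23 (log2 fold change 1.94, SE 0.13, adjusted p = 9.51e-08). Cd44, the hyaluronan receptor, was at 1.31, 1.45 and 2.38 against 0.193, 0.192 and 0.248 (log2 fold change 1.14, SE 0.22, adjusted p = 0.00245) and was the member called among 11 proteoglycan and perineuronal net genes (4 without both libraries 5). Over all genes 7.2% were called higher with all libraries and 16.7% without both. Among 12 annexin and S100 genes 7 were called higher, with S100a4, a protein of migrating cells, at 21.8, 20.9 and 16.8 FPKM against 4.93, 4.81 and 2.8 (log2 fold change 2.03, SE 0.24, adjusted p = 1.72e-05).

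Of 16 cell cycle genes 3 were called higher. Mki67, the Ki-67 protein of dividing cells, stood at 1.4, 1.2 and 4.94 FPKM against 0.203, 0.174 and 0.371 (log2 fold change 1.34, SE 0.31, adjusted p = 0.0104; 0.88 without 10-day library 5). Library 5 was well above the other 10-day libraries, which still exceeded every left one. Top2a and Ccnb2 rose by 0.94 and 1.01 (adjusted p = 0.0198 and 0.0159). The call ended (adjusted p in parentheses) of Top2a without left 1 (0.0728), left 3 (0.0583) and 10 days 5 (0.107), of Ccnb2 without left 1 (0.0629), left 3 (0.0677) and 10 days 5 (0.0921). Of 11 genes of heme and iron handling 6 were called higher. Hmox1, which degrades heme, was at 13.1, 12.7 and 18 against 1.63, 2.92 and 3.98 (log2 fold change 2.05, SE 0.39, adjusted p = 0.00183). Slc11a1, an iron transporter of phagosomes, was at 5.91, 4.41 and 5.45 against 0.535, 0.397 and 0.3 (log2 fold change 2.14, SE 0.16, adjusted p = 1.96e-07), and Slc40a1, the iron exporter ferroportin, rose by 1.00 (SE 0.16, adjusted p = 0.000336). Of 12 metallothionein and antioxidant genes 2 were called higher. Gpx1, a glutathione peroxidase, was at 68.7, 70.7 and 97.2 FPKM against 24.8, 26.4 and 11.9 (adjusted p = 0.0164), and the secreted form Gpx3 at 12.8, 9.56 and 17.9 against 3.3, 4.84 and 7.44 (adjusted p = 0.0472). The calls ended (adjusted p in parentheses) of Gpx1 without 10 days 5 (0.0723) and of Gpx3 without left 1 (0.209), left 3 (0.125), 10 days 1 (0.0746) and 10 days 5 (0.201). The metallothionein Mt2 was at 244, 149 and 161 against 155, 152 and 247 (adjusted p = 0.994). Of 12 heat shock genes 1, Hspb1, was called higher (0.67, adjusted p = 0.0174; 0.0904 without left 1 and 0.0661 without 10 days 2), and of 16 proteasome genes 3 (6 without both libraries 5). Over all genes 7.2% were called higher, and 16.7% without both libraries 5. In the axon regrowth list Atf3, Cntf and Klf6 were called higher of 10 tested (1.62, 1.33 and 0.47, adjusted p = 2.86e-05, 0.000313 and 0.0359). The call ended of Klf6 without left 1 (0.14), left 3 (0.0947) and 10 days 5 (0.142). Hk2, a hexokinase, was the member called of 17 glycolysis and hypoxia genes, at 2.87, 2.39 and 2.54 FPKM against 0.699, 0.536 and 0.693 (log2 fold change 1.13, SE 0.14, adjusted p = 3.49e-05).

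Of 15 endothelial genes 2 were called higher (against 7.2% of all genes), the drug efflux pump Abcb1a and Itm2a (0.68 and 0.71, adjusted p = 0.0209 and 0.0295). The call ended (adjusted p in parentheses) of Abcb1a without left 3 (0.119) and 10 days 2 (0.0557), of Itm2a without left 3 (0.1), left 5 (0.0597) and 10 days 2 (0.0856). Cldn5, a tight junction protein, stood at 22.5, 27.3 and 7.62 FPKM against 26.7, 16.5 and 12.1 (-0.05, adjusted p = 0.952). Of the 15, 7 were called higher without both libraries 5, where 16.7% of all genes were, and none was called against sham right. Of 9 pericyte and smooth muscle genes tested 2 were called, Anpep at 1.86, 1.78 and 4.81 FPKM against 0.398, 0.292 and 0.533 (log2 fold change 1.35, SE 0.22, adjusted p = 0.000398) and Rgs5 at 32, 36.8 and 37.4 against 26.2, 15.4 and 24.7 (log2 fold change 0.69, SE 0.16, adjusted p = 0.00891). With both libraries 5 left out, 7 of the 9 were called higher (median 0.78, against 0.44 with all). The median over all genes was then 0.15, against 0.00 with all. For Rgs5 the left values lay under those of sham right (27.8, 30.4 and 32.9 FPKM), and against sham right it was not called (0.22, adjusted p = 0.469). Over the endothelial list the median of left minus sham right was -0.44, against -0.05 over all genes, with no member called.

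No myelin gene of 15 was called (median 0.06). At an unadjusted p under 0.05 limma placed 2 members higher and 2 lower. Mbp, myelin basic protein, stood at 86.5, 87.4 and 57.5 FPKM against 188, 165 and 82.1 (log2 fold change -0.84, adjusted p = 0.13). Left libraries 1 and 3 held the highest Mbp values and left 5 fell among the 10-day values. Without both libraries 5, 2 members were called lower, Mbp among them (-1.01, adjusted p = 0.0333). Enpp6, which marks newly forming oligodendrocytes, was the member called of 12 precursor genes, at 3.39, 3.55 and 5.42 FPKM against 1.16, 1.46 and 1.88 (log2 fold change 1.02, SE 0.20, adjusted p = 0.00215). Over all genes 7.2% were called higher. Pdgfra, the receptor of precursor cells, was not called (0.42, adjusted p = 0.119), and was called higher without both libraries 5 (0.54, adjusted p = 0.0124). Of the 12 precursor genes 6 were then called higher and 1 lower, where 16.7% of all genes were called higher and 3.87% lower. Against sham right Enpp6 was not called (0.62, adjusted p = 0.073).

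None of 20 general neuronal genes was called (median -0.14; 0.08 without both libraries 5, with 5 then called higher and 1 lower). The same held for 20 synaptic vesicle genes (median -0.06; 0.22 without both), 16 GABA receptor genes, 12 interneuron, 12 cortical layer, 10 striatal and 17 ion channel genes. At an unadjusted p under 0.05 (limma) there were 3 general neuronal, 4 vesicle, 1 GABA receptor, 2 interneuron, 1 cortical layer, 0 striatal and 2 ion channel genes. Without both libraries 5, 9 of the 17 ion channel genes were called higher (median 0.51, against 0.15 with all), as were 4 vesicle genes with 1 lower and 3 GABA receptor genes with 1 lower, while no interneuron, cortical layer or striatal gene was called. Over all genes 16.7% were then called higher and 3.87% lower. Snap25, a protein of vesicle fusion, stood at 398, 454 and 576 FPKM against 359, 439 and 450.4 (log2 fold change 0.18, SE 0.17, adjusted p = 0.569). Rbfox3, the neuronal nuclear protein NeuN, was at 25.6, 27.5 and 14.5 against 23, 24.3 and 31.9 (log2 fold change -0.25, SE 0.19, adjusted p = 0.452), and Slc17a7, the glutamate transporter of cortical excitatory synapses, at 92.4, 92.8 and 67.5 against 94.3, 89.2 and 104 (log2 fold change -0.20, SE 0.16, adjusted p = 0.481). The groups of these 3 genes overlapped, and 10-day library 5 was the highest for Snap25 and the lowest for the other two. Camk2a, Pvalb and Sst were not called either (-0.48, -0.92 and -0.36, adjusted p = 0.088, 0.101 and 0.305). Gad1, which makes GABA, was not called with all libraries (0.17, adjusted p = 0.588) and was called higher without both libraries 5 (0.50, adjusted p = 0.021). The sign of the general neuronal and vesicle medians therefore depended on the 2 libraries. The median over all genes tested moved too, from 0.00 with all libraries to 0.15 without both.

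Of 17 glutamate receptor and postsynaptic genes 2 were called lower, both scaffolds of the postsynaptic density. Over all genes 1.42% were called lower. Dlg4, PSD-95, stood at 63.7, 66.8 and 38.1 FPKM against 83.1, 89.3 and 78.8 (log2 fold change -0.61, SE 0.18, adjusted p = 0.0443), and Shank3 at 14.7, 14 and 6.57 against 25.1, 17 and 18.8 (log2 fold change -0.80, SE 0.23, adjusted p = 0.0424). The 10-day library 5 was the lowest for both. Neither Dlg4 nor Shank3 was called with only the 6 libraries in the fit (limma, adjusted p = 0.49 and 0.386). The same held after non-mitochondrial scaling (adjusted p = 0.0673 and 0.0719). Leaving out single libraries ended the call (adjusted p in parentheses) of Dlg4 without left 1 (0.115), left 3 (0.147) and 10 days 5 (0.145), of Shank3 without left 1 (0.196), left 3 (0.0501) and 10 days 5 (0.171). Without both libraries 5 the log2 fold changes were -0.40 and -0.50 (adjusted p = 0.045 and 0.0721). Without both, 5 members of the list were called higher, where 16.7% of all genes were.

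Neurons switch on immediate early genes with activity. Of 20 tested 4 were called lower and none higher (median -0.40), against 1.42% of all genes called lower. Of the 20, 18 had a log2 fold change below 0. After non-mitochondrial scaling 2 were called, and 1 with only the 6 libraries. Arc, a regulator of synaptic strength, stood at 12.6, 22 and 9.25 FPKM at 10 days, 45.5, 39.2 and 41.3 on the left and 91.6, 85.8 and 70.6 in sham right (log2 fold change -1.54, SE 0.26, adjusted p = 0.000673 against left). Nr4a1, a nuclear receptor, was at 10.8, 10.4 and 8.32 against 17.3, 19.2 and 29 and 34.4, 32.4 and 28.5 (log2 fold change -1.04, SE 0.23, adjusted p = 0.00657 against left). For Arc the 3 groups did not overlap, with the 10-day libraries lowest and sham right highest. Left against sham right was not called for Arc (-0.95, limma, adjusted p = 0.434). Dusp1, a phosphatase of MAP kinases, and Junb, an AP-1 subunit, fell by 0.63 and 1.03 on the log2 scale (adjusted p = 0.0248 and 0.0461). Leaving out 1 library ended the call (adjusted p in parentheses) of Dusp1 without left 3 (0.121) and 10 days 1 (0.088), of Junb without left 1 (0.0955), left 3 (0.121), left 5 (0.0584) and 10 days 5 (0.129). Fos was at 2.94, 3.56 and 4.85 FPKM against 5.82, 7.08 and 10.14 and 13.6, 17.4 and 13.6, not called against left (adjusted p = 0.0616) and called lower against sham right (-1.74, adjusted p = 0.000291). Bdnf, a neurotrophin, was not called (-0.07, adjusted p = 0.863). The left values were below sham right over the list (median -0.44, against -0.05 over all genes), with no member called. At 10 days against sham right 9 of 20 were called lower, against 0.92% of all genes.

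The largest falls were genes of mixed function. Arl4d, a small GTPase, stood at 8.03, 9.75 and 3.21 FPKM against 11.9, 17.1 and 25.5 (log2 fold change -1.31, SE 0.29, adjusted p = 0.00655), Ddit4, an inhibitor of mTOR signalling, at 15.1, 18.5 and 4.44 against 24.7, 28.3 and 32.7 (log2 fold change -1.30, SE 0.32, adjusted p = 0.0171) and Hes5, a target of Notch signalling, at 3.23, 3.52 and 0.506 against 8.83, 8.53 and 3.54 (log2 fold change -1.29, SE 0.35, adjusted p = 0.0288). In these, and in Psd, Shf, Clec2l and Dusp5 (log2 fold change -1.09, -1.10, -1.06 and -1.08), 10-day library 5 was the lowest value. Without both libraries 5 Arl4d, Ddit4 and Hes5 fell by 0.64, 0.63 and 1.15 on the log2 scale. Without 10-day library 5 alone the log2 fold changes of Psd, Shf and Clec2l came to -0.71, -0.57 and -0.62, and Shf lost its call without both (-0.44, adjusted p = 0.0806). Slc25a34, a mitochondrial carrier, was at 0.917, 0.593 and 0 FPKM against 2.89, 2.96 and 2.54 (log2 fold change -1.39, SE 0.19, adjusted p = 8.47e-05) and was called in all 6 fits without 1 library. Wdr74, a ribosome assembly factor, was at 2.49, 3.59 and 4.99 against 13.1, 17.1 and 12.7 (log2 fold change -1.73, SE 0.51, adjusted p = 0.045). The small RNA loci Gm27544 (chr10:92071661-92071815) and Mir6991 (chr19:7422573-7422642) were lower too (-1.77 and -1.18, adjusted p = 0.0498 and 0.0457). With only the 6 libraries in the fit Slc25a34 and Wdr74 were called (limma, adjusted p = 0.0165 and 0.00584). The other falls of this paragraph were not, with adjusted p from 0.0815 (Mir6991) to 0.367 (Shf). After non-mitochondrial scaling Shf, Gm27544 and Mir6991 were not called (adjusted p = 0.0519, 0.0708 and 0.0745). Wdr74, Gm27544 and Mir6991 were each called in 1 of the 6 fits without 1 library, with largest adjusted p of 0.148 (without left 3), 0.127 (without 10 days 2) and 0.227 (without 10 days 5). Calls also ended of Ddit4 without left 3 (0.0533), of Hes5 without left 1 (0.145), left 3 (0.13) and 10 days 5 (0.13), of Psd without left 1 (0.0811), left 3 (0.0816) and 10 days 5 (0.0653), of Shf without left 1 (0.062), left 3 (0.0868), left 5 (0.0586) and 10 days 5 (0.0692), of Clec2l without left 1 (0.0517) and left 3 (0.0563).

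Energy and translation genes were not called. Of 17 nuclear genes of the respiratory chain none passed (median -0.32, 16 below 0), nor did any of 15 mitochondrially encoded genes (median -0.02; -0.57 without both libraries 5, with 4 then lower) or 20 ribosomal protein genes (median -0.27). Without both libraries 5, 3.87% of all genes were called lower. At an unadjusted p under 0.05 (limma) with all libraries there were 2 respiratory chain genes, both lower, 0 mitochondrially encoded and 0 ribosomal protein genes. Summed mitochondrially encoded FPKM ran from 97098 (left 5) to 204471 (10 days 5). Summed FPKM of all other genes was 266185, 266692 and 260761 at 10 days and 284717, 291531 and 233070 on the left. Scaling by the non-mitochondrial sum called 892 genes higher and 148 lower.

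**Figure D4:**
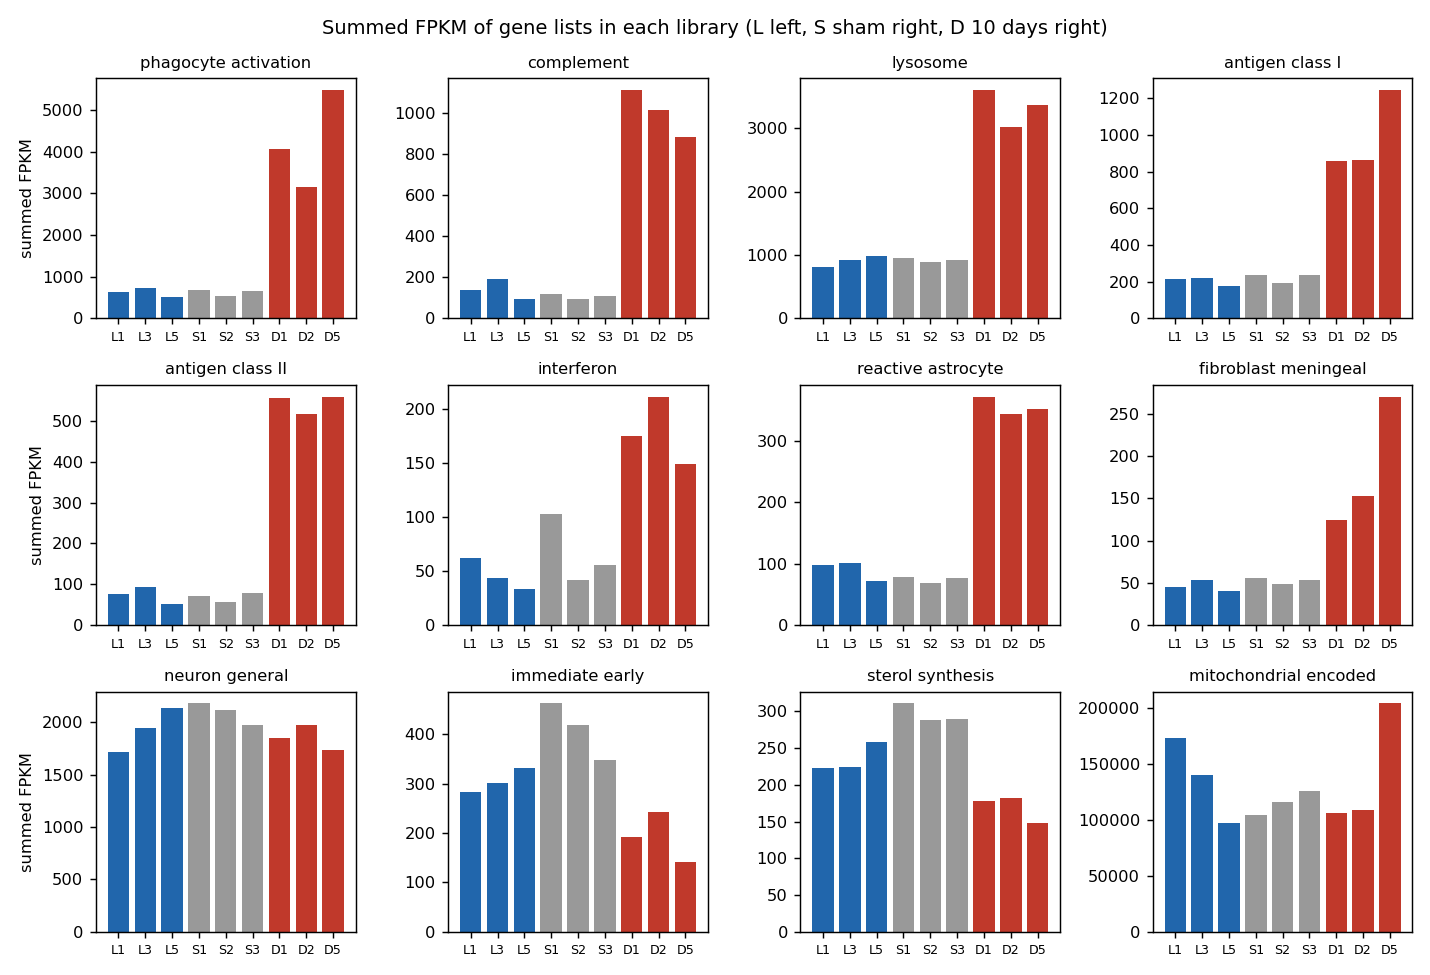
Summed FPKM (y axis, from 0) of 12 gene lists in each library: L left, S sham right and D 10 days right, with the library number. The 10-day bars exceed every left bar for the phagocyte, complement, lysosome, antigen, interferon, reactive astrocyte and fibroblast lists, fall under them for the immediate early and sterol lists, and overlap them for the neuronal and mitochondrial ones.

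The choice of control changed some of these results. Against sham right 1000 genes were called at 10 days (7.13%), 871 higher (6.21%) and 129 lower (0.92%), and left against sham right gave 4 (0.0285%), 3 higher (0.0214%) and 1 lower (0.00713%; limma, with 1077 genes at an unadjusted p under 0.05). Both comparisons share the 10-day or the left libraries with the main one and are not independent of it. Left and sham right share the numbers 1 and 3 in their titles. The fit treated these libraries as separate samples, and a pairing between them was not tested. The rises of the phagocyte, complement, Fc receptor and lysosome lists were made against either control, with 19, 13, 6 and 22 members called higher against sham right. Of 124 genes chosen for naming and called against the left side, 23 were not called against sham right, 9 of the 98 rises and 14 of the 26 falls (limma, adjusted p from 0.0565 to 0.786). The falls were those of Timp4, Gjb6, Aldoc, Aldh1l1, Dlg4, Shank3, Ddit4, Psd, Shf, Clec2l, Wdr74, Gm27544, Mir6991 and F3 (tissue factor, -0.47 against left, adjusted p = 0.0373; -0.08 against sham right, adjusted p = 0.786). The rises were those of Rgs5, Abcb1a, Itm2a, Eng, Enpp6, Klf6, Top2a, Gpx1 and Hspb1. No difference between the 2 comparisons was tested for these genes.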

How the data were processed

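Total RNA of micro-punched brain was sequenced with a VAHTS Total RNA-seq kit, per the labels' protocols. The submitters' processing notes name GRCm38 as the build, and Trimmomatic (0.36), StringTie (1.3.4d) and HISAT2 (2.1.0) as tools. Settings, annotation and strand handling are not given in the sources used here. The authors deposited FPKM for each library, and a p-value and q-value per gene whose comparison is not stated and which was not used. The copy used here ends inside a line; its 34921 complete entries were read, 34797 matched GENCODE M21 for names and coordinates, and a further 3101 or so, of highest q-value, are not analysed here (among the listed genes, for example, Elane, Ahsp, Cd163, Reln, Myh11, Cx3cl1, Itga4, Scn2a and Hcn2).

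Log2(FPKM + 1) of the 14016 genes with at least 1 FPKM in 3 or more libraries was analysed in R 4.3.3 with limma 3.58.1, statmod 1.5.0 and the data.table package (1.17.8), taking 1 mean for each of 6 groups over all 18 libraries, so that groups share the spread, and empirical Bayes moderation (trend, robust). P-values were Benjamini-Hochberg adjusted over all genes and called under 0.05. Each library counts as 1 replicate of its group, and the p-values measure only the spread between these samples. Genes without raw counts have no counting error here; nominal depths come from the commonest low value and are rough, with 33 to 38.7% of low values falling near whole multiples (tolerance 0.1). The script was tested on simulated data.

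The 51 gene lists (646 of 712 genes tested), the comparison and the motifs were chosen with earlier results of these data known. Named genes are the 12 largest rises and falls among called genes with groups that do not overlap and a higher mean of at least 1 FPKM, 3 called members with the smallest adjusted p per list and direction (all if 5 or fewer), a panel of 47 genes, and uncalled list members. Igf1, Ly6c2, Plac8, C3ar1, Abca1, Abcg1, Lum, Dcn, Psap and Bst2 were picked after their values were seen. Some genes under these rules are not reported here. Alternatives were other pseudocounts, filters, scalings and fits, and libraries left out.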

Additional observations from a re-analysis of the deposited data

How the results depend on the processing

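Counts of genes called at 10 days against the left side (1208, with 1009 higher and 199 lower) moved by over 1.5 times in several settings, and the cause was not tested. Only the 6 libraries gave 532 (526 higher, 6 lower), and a filter of 5 FPKM, which tests fewer genes, 536 (424 and 112). Leaving out both libraries 5 gave 2884 (2342 and 542), and array weights, whose estimate stopped before convergence, 4299 (3333 and 966). Lower calls came to 95 without a filter, 453 after median-of-ratios scaling and 532 after quantile normalization. Leaving out 1 library gave 838 to 3130 calls, 781 to 2303 of them higher and 52 to 827 lower. Pseudocounts of 0.1 and 0.5 gave 1197 and 1208. With the replicate number as a block 1809 genes were called, 1178 higher and 631 lower. The groups share only the numbers 1 and 5, whose deviations correlated at -0.06 and 0.13, and no label says that a number marks an animal, so the samples share only a number. No named gene that was called changed sign in any setting. Of 124 named called genes 110 were called again after non-mitochondrial scaling, 122 after median-of-ratios scaling, 120 after quantile normalization, 119 with the block, 113 without both libraries 5 and 87 with only the 6 libraries. Medians over lists changed sign without both libraries 5 for the general neuronal, synaptic vesicle, striatal, glycolysis, axon regrowth and choroid lists. The median over all genes tested was 0.00 with all libraries and 0.15 without both. With no counts, differences in genes under 1 FPKM are the least precise.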

Other observations

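Several genes outside the lists, chosen here after their values were seen, rose with the phagocyte genes. Apoc2, an apolipoprotein gene of the Apoe cluster on chromosome 7, was listed at 0 in all left and all sham right libraries and at 10.8, 6.68 and 5.62 FPKM at 10 days (adjusted p = 6.18e-08). Its neighbours Apoc1 and Apoe rose by 2.87 and 1.99 on the log2 scale. The transcription factors of the myeloid lineage Spi1 (PU.1) and Irf8 stood at 6.99, 5.83 and 8.47 and 6.13, 4.99 and 3.85 FPKM against 1.38, 1.56 and 0.866 and 0.774, 0.788 and 0.457 on the left. Their log2 fold changes were 1.84 and 1.83 (limma, adjusted p = 1.36e-06 and 1.96e-07), with no overlap of the groups. Receptors of the SLAM family, which join blood cells to each other, were higher too. Cd48 was at 15.2, 12.8 and 36.8 FPKM against 0.769, 1.29 and 0.629, Cd84 at 9.72, 7.58 and 16.2 against 0.784, 0.966 and 0.627 and Ly9 at 5.1, 3.55 and 10.6 against 0.181, 0.128 and 0.0405 (adjusted p = 4.9e-07, 4.77e-07 and 1.56e-06). Atp6v0d2, a proton pump subunit known from osteoclasts, was listed at 0, 0 and 0 FPKM on the left and stood at 1.73, 1.32 and 9.5 at 10 days, most in library 5 (adjusted p = 0.00115).

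Of the constant-region genes tested, 2 of 3 antibody genes (Igkc and Ighg2c) and 1 of 3 T cell receptor genes (Trac) were called higher, while 19 of the 24 lymphocyte and dendritic cell genes did not reach the filter. Igkc, the kappa light chain, stood at 3.99, 7.83 and 18.1 FPKM against 1.39, 0.763 and 0.246 (log2 fold change 2.44, SE 0.51, adjusted p = 0.00489), with 10-day library 5 the highest. Trac, the T cell receptor alpha chain, was at 1.17, 1.21 and 4.42 against 0.44, 0.553 and 0.306 (log2 fold change 1.05, SE 0.25, adjusted p = 0.0134), and the beta chain genes Trbc1 and Trbc2 were not called (1.53 and -0.15, adjusted p = 0.104 and 0.863), nor was the heavy chain gene Ighm (0.33, adjusted p = 0.378). Among noncoding genes, H19, an imprinted long RNA, was at 4.81, 7.19 and 25.5 FPKM against 0.26, 0.499 and 0.683 (log2 fold change 2.88, SE 0.40, adjusted p = 9.52e-05), while Igf2, which lies beside it, was at 0.975, 7.27 and 6.73 against 3.24, 4.56 and 2.28 (adjusted p = 0.86). The long RNA AU020206 was at 9, 6.91 and 11.2 against 0.563, 0.696 and 0.541 (log2 fold change 2.63, SE 0.17, adjusted p = 6.49e-08). Of 258 intergenic long noncoding RNAs tested 7 were called higher and 2 lower, and of 202 antisense genes none higher and 8 lower. Over all genes tested 7.2% were called higher and 1.42% lower. Antisense reads cannot be told from those of the partner gene where the strand was not used. Malat1, an abundant nuclear RNA, spread widely within groups, at 124, 28.3 and 32.1 FPKM at 10 days and 14.9, 19 and 139 on the left (adjusted p = 0.734).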
